A study of Drosophila melanogaster with 2 samples.

Results

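The 54 genes described here encode proteins of the large subunit of the cytosolic ribosome of Drosophila melanogaster or, for some "-like" genes, relatives of these proteins. They were chosen by symbol as protein-coding genes named RpL or RpLP followed by a number, and they are 54 of 13834 protein-coding genes of the Ensembl annotation. The rule reads the symbol and no measured value. Of the 54, 47 are main genes and 7 are duplicate or "-like" genes of the same family. All 7 are called duplicates below for short, although RpL24-like, RpL7-like and RpLP0-like are relatives of yeast assembly factors and not copies of the main gene. The symbol rule does not set which gene of a family is main where the duplicate is not named "-like". MESR4 is a nuclear protein of the fly, and its binding was mapped by chromatin immunoprecipitation with sequencing (ChIP-seq), in which DNA cross-linked to a protein is recovered with an antibody and sequenced.

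The series holds 1 group of 2 samples, labelled biological replicates 1 and 3. Both came from whole embryos collected between 0 and 24 hours after egg laying, males and females pooled, of a transgenic line that stably expresses MESR4 with GFP fused to its C-terminus. The promoter that drives the fusion and the state of the untagged MESR4 gene are not given in the sources used here. Chromatin was sheared by sonication to fragments of 200 to 800 bp, and collection over the whole of embryonic development mixes all its stages and cell types. The free text of both samples calls them input controls, although their antibody label names MESR4 and the deposited peak lists were called against a separate control alignment. There is no second condition, so every comparison below is between genes within the same lists, and the 2 replicates give the only measure of error.

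Ribosomal proteins are made in near-equal amounts and assembled on ribosomal RNA in the nucleolus, so their genes are among the most strongly and coordinately transcribed in growing cells. In flies, loss of 1 copy of many of these genes gives the Minute phenotype of slow development and short bristles. Their promoters in flies commonly carry a pyrimidine-rich initiator, called TCT, in place of the usual initiator, and the TBP-related factor Trf2 is known to act there. DRE and Motif 1 are other core promoter elements of housekeeping genes, bound by Dref and M1BP.

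The start-site sequences below are shown because they are the shared feature of these promoters against which the MESR4 summits were later measured. Each runs 5' to 3' on the gene's strand, from 20 bases before to 20 bases after the annotated start of the canonical transcript, and was read from the RefSeq genome of release 6 (dm6). Capitals mark matches to the TCT initiator, searched on the gene's strand, where neighbouring matches may overlap. The forms searched were CCTTTC, the same with a final pyrimidine changed, CCTTTT, the form with another first base, TCTTTC, and the form with both changes, TCTTTT. The first 6 are the members of highest signal among those for which a sequence is printed and the canonical start has a match. They are RpL30 at chr2L:19009217-19009257 (minus strand), RpL24 at chr2L:13395072-13395112 (minus), RpL13A at chr3R:5624454-5624494 (plus), RpL14 at chr3L:8600986-8601026 (plus), RpL8 at chr3L:2587436-2587476 (plus) and RpL6 at chr3R:31596184-31596224 (minus).
RpL30: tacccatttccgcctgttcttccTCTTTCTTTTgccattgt
RpL24: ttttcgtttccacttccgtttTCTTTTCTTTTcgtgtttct
RpL13A: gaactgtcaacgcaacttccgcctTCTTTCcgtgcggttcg
RpL14: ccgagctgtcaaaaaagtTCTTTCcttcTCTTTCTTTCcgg
RpL8: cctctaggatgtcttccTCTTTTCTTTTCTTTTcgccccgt
RpL6: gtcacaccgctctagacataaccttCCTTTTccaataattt
The start of RpL10Aa (chr3R:15037346-15037386, plus), a duplicate with no MESR4 peak, is shown beside that of its main gene RpL10Ab (chr3L:11822831-11822871, plus). The start of RpL24-like (chr3R:11431562-11431602, minus), a duplicate with a peak that is weak only among RpL genes, is set beside RpL24 above.
RpL10Aa: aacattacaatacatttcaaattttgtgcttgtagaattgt
RpL10Ab: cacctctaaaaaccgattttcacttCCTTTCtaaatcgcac
RpL24-like: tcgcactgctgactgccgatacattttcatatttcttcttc
Neither of these duplicates had a match in this window, and both main genes did. Of all 7 duplicates, 3 had a match, namely RpL34a and RpL7-like, the weakest bound members, and RpL37-2, which had no peak.

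A promoter peak was counted where a summit of the authors' list thresholded on reproducibility between replicates lay within 500 bp of any annotated start site of the gene. The signal of a gene is the authors' value for its strongest such summit. Its scale is set per list and has no stated unit, so it was compared only within a list. By this count 51 of the 54 large-subunit genes (94.4%) carried a promoter peak, where 42.6% of all protein-coding genes did. The other 13780 genes had 5838 (42.4%). All 47 main genes carried a peak, and 4 of the 7 duplicate or "-like" genes did. Of those 4, RpL34a alone is not one of the relatives of assembly factors. That split rests on the main and duplicate labels, for which no rule is stated where the symbol lacks "-like". The count was 51 in the main list and also in the 6415 strongest summits of replicate 1 alone and of replicate 3 alone. With 1 group and no second condition, no test was run on these shares.

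The signals of the 51 genes spanned 343.6 at RpL7-like to 3170.8 at RpL30, a ratio of 9.23, with a median of 1354.8 and quartiles of 976.9 and 1812.7. The 5838 other genes with a peak had a median of 465.8 and quartiles of 320.6 and 673.9. The ratio of the medians, a quantity chosen after the values were seen, was 2.91. When genes were ranked by signal, 21 RpL genes were within the first 100 ranks, 38 within the first 500 and 46 within the first 1000. Genes that share a summit are each counted, as Dph4 and Spec2 are with RpL13A at 2066.8. With such ties the first 100 ranks held 101 genes. Their median rank was 147, against 2968.5 for the other genes with a peak.

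**Figure D1:**
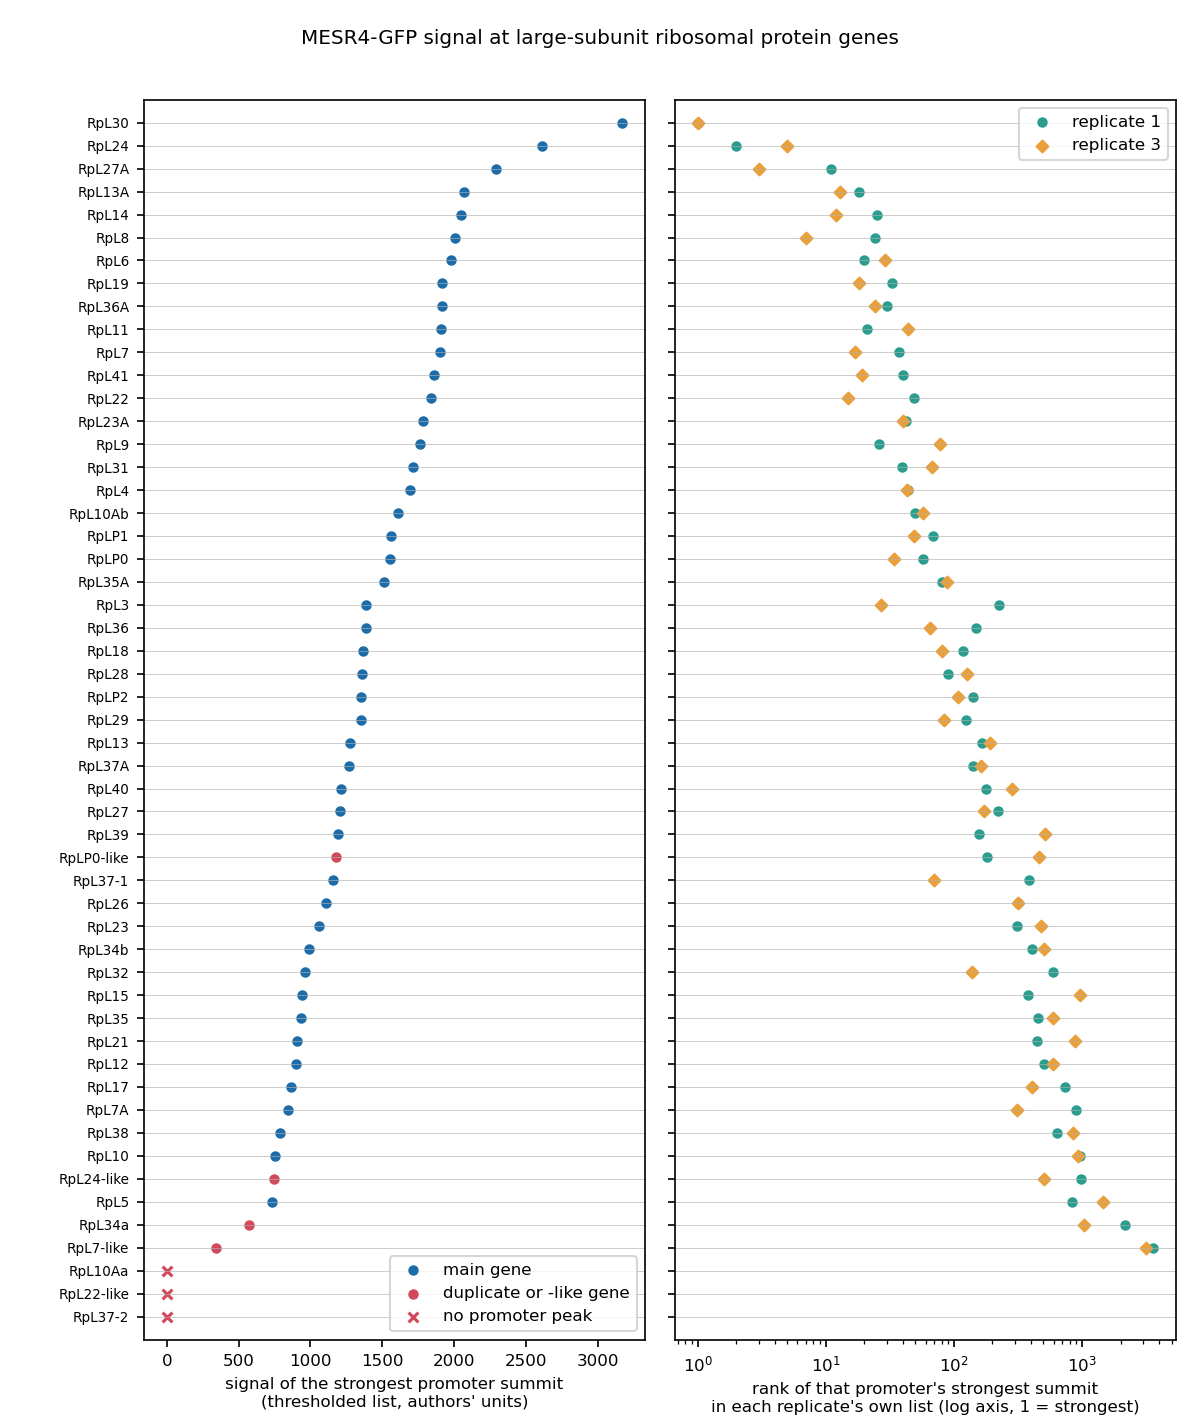
Signal of the strongest promoter summit of 53 of the 54 RpL genes in the thresholded list (left, authors' units) and the rank of that promoter's strongest summit in each replicate's own list (right, log axis, 1 is the strongest). RpL30 is first in all 3, the 4 bound duplicates lie at 1177.4 or below, and the 3 crosses are genes with no promoter peak.

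The strongest member was RpL30, which encodes a protein that in yeast binds its own transcript and blocks its splicing. Its signal was 3170.8 in the thresholded list, 2118.3 in replicate 1 and 1080.8 in replicate 3, and it ranked first in each of the 3. RpL24, a protein at the face of the large subunit that meets the small one, had 2609.0, with 1825.6 in replicate 1 (rank 2) and 833.8 in replicate 3 (rank 5). RpL27A followed among the members with 2291.9, with 1438.3 in replicate 1 (rank 11) and 861.1 in replicate 3 (rank 3). The replicate ranks of the 3 genes all lay within the first 11 of 30000 summits.

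The next members lay close together. RpL13A had 2066.8, with 1389.5 in replicate 1 (rank 18) and 691.8 in replicate 3 (rank 13). RpL14 had 2046.4, with 1324.1 in replicate 1 (rank 25) and 705.4 in replicate 3 (rank 12). RpL8, a protein of the catalytic core, had 2007.2, with 1326.1 in replicate 1 (rank 24) and 745.0 in replicate 3 (rank 7). The order of these 3 was not the same in the replicates, where RpL13A led in replicate 1 and RpL8 in replicate 3.

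RpL6 had 1977.7, with 1383.4 in replicate 1 (rank 20) and 586.7 in replicate 3 (rank 29). RpL19, which lines the peptide exit tunnel region and contacts the small subunit, had 1915.7, with 1259.8 in replicate 1 (rank 33) and 650.2 in replicate 3 (rank 18). RpL36A had 1914.5, with 1305.8 in replicate 1 (rank 30) and 635.2 in replicate 3 (rank 24). RpL19 and RpL36A changed places between the replicates as well, since RpL36A was the higher in replicate 1 and RpL19 in replicate 3. RpL11 had 1912.1, with 1374.3 in replicate 1 (rank 21) and 532.9 in replicate 3 (rank 44). RpL7 had 1899.7, with 1243.6 in replicate 1 (rank 37) and 668.4 in replicate 3 (rank 17). RpL41, which encodes a very short basic peptide, had 1857.8, with 1225.0 in replicate 1 (rank 40) and 649.1 in replicate 3 (rank 19). All 12 of these genes stood within the first 44 ranks of both replicates.

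Sorted by where their products sit in the ribosome, a grouping made after the values were seen, the genes of a site did not share 1 level. In the stalk, which recruits the elongation factors, RpLP1 had a signal of 1561.5, RpLP0, the anchor protein, had 1555.4 and RpLP2 had 1354.8. RpL12, at the stalk base, had 897.2. The stalk genes thus lay above the RpL median or at it, and the gene of the stalk base lay below.

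RpL5 and RpL11 bind the 5S ribosomal RNA together before it joins the subunit, and their signals lay on either side of the RpL median. RpL5 had 730.0, with 539.7 in replicate 1 (rank 828) and 200.1 in replicate 3 (rank 1471), whereas RpL11 had 1912.1 with the replicate values above. In the core around the catalytic centre RpL8 had 2007.2, RpL4 1692.6 and RpL3 1384.6. RpL10, which is added late in assembly and lies near the catalytic centre, had 753.4, with 513.1 in replicate 1 (rank 965) and 238.9 in replicate 3 (rank 928). Around the exit tunnel RpL19 had 1915.7, RpL23A 1782.6, RpL31 1711.2, RpL39 1192.4, RpL26 1105.4, RpL35 935.4 and RpL17 868.1. The gap between RpL5 and RpL11 was present in both replicates, and RpL10 lay behind RpL8, RpL4 and RpL3 in both.

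The remaining main genes fell between these values. RpL22 had 1842.8, RpL9 1763.6, RpL10Ab 1607.8, RpL35A 1510.6, RpL36 1384.0, RpL18 1367.1 and RpL28 1357.7. Below the RpL median lay RpL29 with 1350.6, RpL13 with 1274.4, RpL37A with 1265.7, RpL40, whose product is made as a fusion to ubiquitin, with 1214.7, RpL27 with 1204.3 and RpL37-1 with 1155.0. RpL23 had 1060.7, RpL34b 993.6, RpL32 960.2, RpL15 942.9, RpL21 903.6, RpL7A 843.0 and RpL38 789.3. RpL38 is known in the mouse for its part in translating Hox messages. Every main gene lay above the median of 465.8 of the other genes with a peak, RpL5 being the lowest at 730.0.

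The replicates ordered the members alike. Spearman's rho between the replicate ranks of the 51 genes was 0.89, as a description, since all points share the same pair of libraries and the same control alignment. In replicate 1, 22 members were among the first 100 summits and 49 among the first 1000. In replicate 3 the counts were 26 and 48, and 21 members were among the first 100 of both. By the ratio of the ranks, RpL3 moved most, with 226 in replicate 1 and 27 in replicate 3, followed by RpL37-1 with 389 and 70 and RpL32 with 596 and 138. By their difference, RpL34a moved most, with 2185 in replicate 1 and 1031 in replicate 3, followed by RpL5 with 828 and 1471 and RpL15 with 381 and 965. Differences in rank of this size between members are not larger than the spread between replicates.

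Each of the 7 families with a duplicate had its stronger peak at the main gene, counting an unbound duplicate as lower. Where the duplicate is not named "-like", the symbols do not say which gene is main, and no rule is stated. Members and lists were chosen with earlier results of these data known. In those families the order therefore cannot be read apart from the labels. RpL24-like, RpL7-like and RpLP0-like are relatives of the yeast assembly factors Rlp24, Rlp7 and Mrt4, of which Rlp24 and Mrt4 hold the place that the ribosomal protein later takes. RpL7-like had a signal of 343.6, against 1899.7 for RpL7, a ratio of 0.181. In replicate 1 it had 244.5 (rank 3598) and in replicate 3 125.4 (rank 3159), and the ratios to RpL7 there were 0.197 and 0.188. RpL24-like had 744.9, against 2609.0 for RpL24, a ratio of 0.286, with 510.0 in replicate 1 (rank 979) and 291.0 in replicate 3 (rank 502). The ratios to RpL24 were 0.279 in replicate 1 and 0.349 in replicate 3. Both of these "-like" genes thus lay far below the main gene in each replicate.

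RpLP0-like had 1177.4, against 1555.4 for RpLP0, a ratio of 0.757, and the ratio was 0.774 in replicate 1 and 0.533 in replicate 3. It had 867.5 in replicate 1 (rank 182) and 296.8 in replicate 3 (rank 463), against 1120.8 (rank 57) and 556.7 (rank 34) for RpLP0. The RpLP0-like summit lay 132 bp upstream of its own start and nearer the start of 14-3-3zeta, which lies 87 bp away on the other strand, and it was the only member summit nearer another gene. That peak cannot be told apart from a peak of 14-3-3zeta. RpL34a had 574.5, against 993.6 for RpL34b, a ratio of 0.578. It had 349.6 in replicate 1 (rank 2185) and 230.0 in replicate 3 (rank 1031), where RpL34b had 690.7 (rank 409) and 290.4 (rank 506), and the ratios were 0.506 and 0.792. The gap within this pair was the least steady of the 4, though RpL34a was lower in both replicates.

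RpL22-like, a testis-expressed relative of RpL22, had no promoter peak, against a signal of 1842.8 for RpL22 (1179.1 and rank 49 in replicate 1, 675.9 and rank 15 in replicate 3). RpL10Aa had none, against 1607.8 for RpL10Ab (1171.5 and rank 50 in replicate 1, 505.3 and rank 57 in replicate 3). Likewise RpL37-2 had none, against 1155.0 for RpL37-1 (704.4 and rank 389 in replicate 1, 479.7 and rank 70 in replicate 3). None of the 3 had a summit within 500 bp in any of the 4 deposited lists, which include the unthresholded lists of 30000 summits. The nearest thresholded summit was 58.5 kb from RpL10Aa, 19.8 kb from RpL22-like and 25.8 kb from RpL37-2. In the list of replicate 1 the nearest summit was 50.4 kb from RpL10Aa, 7.4 kb from RpL22-like and 3.4 kb from RpL37-2. The canonical transcripts of RpL10Aa and RpL37-2 have 1 exon each, and that of RpL22-like has 2, against 3 in each of their main genes. All 3 unbound genes had no other protein-coding start within 1000 bp, so no neighbour's summit could be counted for them, whereas the 4 bound duplicates each had a neighbour.

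**Figure D2:**
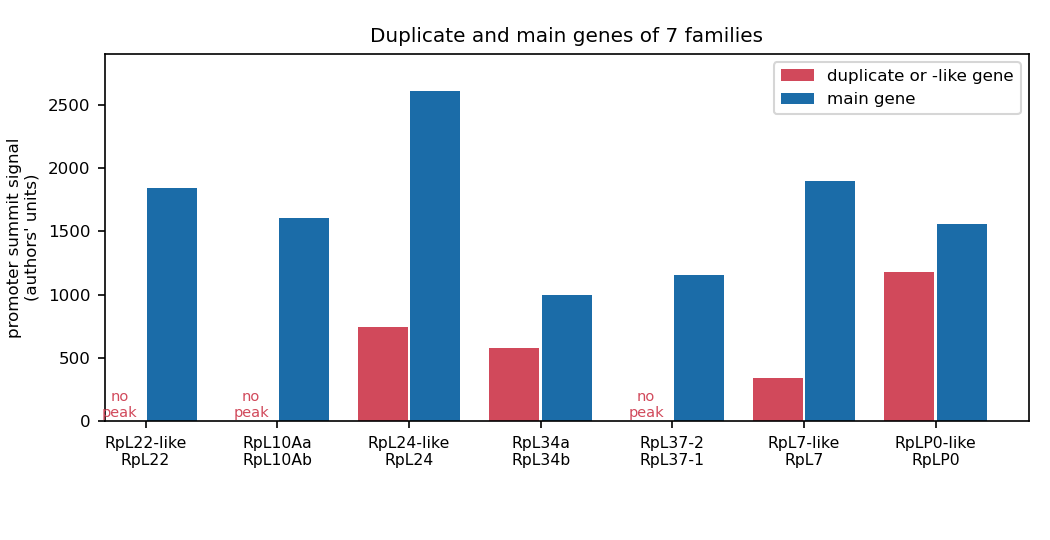
Signal of the strongest promoter summit (authors' units, axis from 0) of the duplicate or "-like" gene, left bar, and the main gene, right bar, of 7 families. The bound duplicates had 343.6 to 1177.4, each below its main gene, and RpL22-like, RpL10Aa and RpL37-2 had no peak.

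The related protein lists set the RpL values in place. Of the 38 genes of the small subunit (RpS), 34 carried a promoter peak (89.5%), with a median signal of 1300.0 and a range of 370.2 to 2585.1, and 10 stood among the first 100 genes. Of the 47 genes of the mitochondrial large subunit (mRpL), which are made in the cytosol for a different ribosome, 44 carried a peak (93.6%), with a median of 459.0 and a highest value of 911.2. The RpL and mRpL genes thus had close shares with a peak while their signals lay apart, and 38 RpL genes and 0 mRpL genes were among the first 500 genes by signal. Of 7 elongation factor genes 6 had a peak, eEF2 the strongest with 1339.7, and eEF1alpha2 had none. All 12 genes of large-subunit assembly had one, from 296.7 at pit to 2275.1 at Non1, with a median of 736.3. Among the promoter factors M1BP had 467.4 and Trf2 373.8, and the 1274.4 of Dref is the summit it shares with RpL13.

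**Figure D3:**
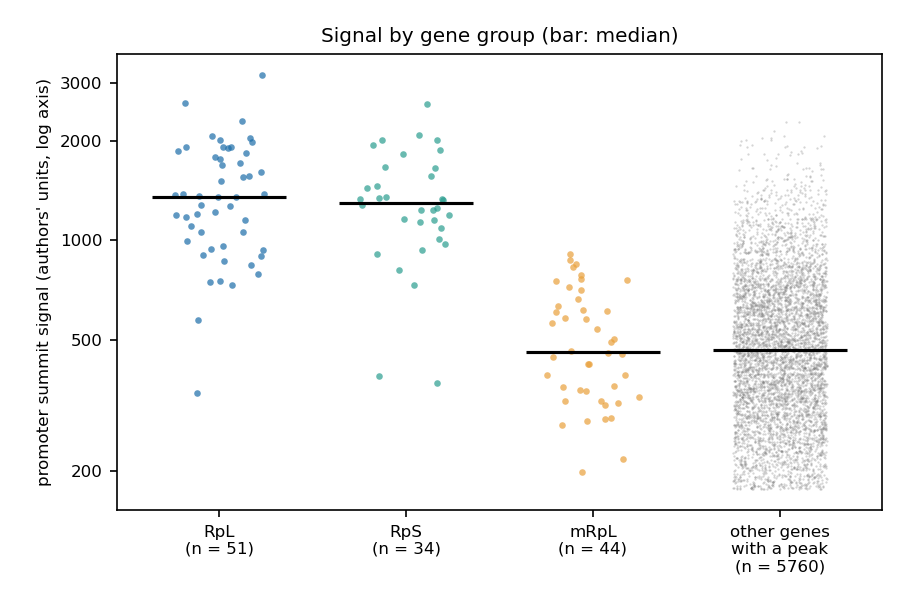
Signal of the strongest promoter summit (authors' units, log axis) of each gene with a promoter peak, 1 point per gene, for RpL, RpS, mRpL and all other genes, with bars at the medians. The RpL median is 1354.8, the RpS median 1300.0 and the mRpL median 459.0, and RpL30 is the highest point.

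The summits lay a short way inside the genes. Measured from the nearest own start site, the median position of the 51 member summits was 78 bp downstream, with a range of 132 bp upstream to 185 bp downstream, and 46 of 51 (90.2%) were downstream. To set aside peaks that a neighbour could account for, the position was also taken over members with no other protein-coding start within 1000 bp. The 17 such members with a peak had a median of 78 bp, with 93 bp in replicate 1 and 60 bp in replicate 3. The 1939 other isolated genes with a peak had 80 bp, with 92 bp in replicate 1 and 58 bp in replicate 3. The RpL median was therefore no further from the start than that of other genes, and the group medians differed less than the replicates did. The RpL positions were less spread, with quartiles of 52 and 89 bp against 21 and 126 bp. The quartiles were 64 and 125 bp against 33 and 136 bp in replicate 1. In replicate 3 they were 40 and 78 bp against 3 and 111 bp.

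Within a member the replicate summits lay a median of 36 bp apart, 102 bp at most, at RpL10, and 40 of 51 lay within 50 bp. Replicate 1 had the further downstream summit at 45 of the 51, with a median difference of 33 bp. Positions below that scale cannot be read from these lists. The median position was 84.5 bp for the 22 members on the plus strand and 74 bp for the 29 on the minus strand.

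**Figure D4:**
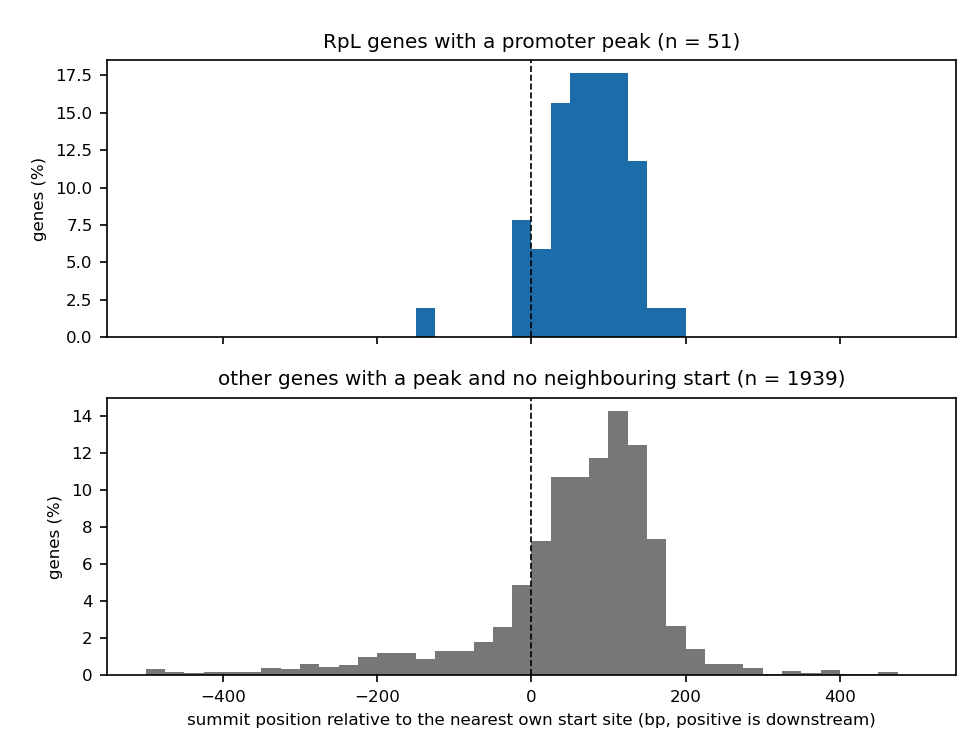
Position of the strongest promoter summit relative to the nearest own start site (bp, positive is downstream) as a share of genes in 25-bp bins, for the 51 RpL genes with a peak (top) and for 1939 other genes with a peak and no neighbouring start (bottom). Both have their median near 80 bp, at 78 and 80 bp.

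The first exons of these genes are short, and the summits lay more often in an intron and less often upstream than at other genes. The median first exon of the bound RpL genes was 54 bp, against 277 bp for other genes with a peak. The summit lay in the first intron of 18 members (35.3%), against 6.13% of other genes with a peak. It lay in a 5' UTR exon of 19 members (37.3%) and in a coding exon of 9 (17.6%), close to the 42.8% and 16.6% of other genes. It lay upstream of the nearest own start of 5 (9.8%), against 34.5% for other genes, where a neighbour's summit can count as upstream. The 17 isolated members had 35.3% in an intron, 23.5% in a 5' UTR, 35.3% coding and 5.88% upstream. For the 1939 other isolated genes these were 6.86%, 54.8%, 19.1% and 19.3%. Over all bound members the summit was within 100 bp of the start codon in 31 (60.8%), against 35.5% of other genes. In replicate 1 the summit lay in an intron of 19 members (37.3%), against 7.19% of other genes, and in replicate 3 of 20 members (39.2%), against 4.99%. The call is less firm gene by gene, since 6 of the 18 intron summits lay no more than 33 bp past the end of the first exon, as at RpL13A (3 bp), RpL30 (14 bp) and RpL11 (17 bp). For 15 of the 18 the summits of both replicates were in an intron, the exceptions being RpL3, RpL8 and RpL37A. Among the 12 strongest members the thresholded summit was in the first intron of RpL30 (46 bp from the start), RpL24 (88 bp), RpL27A (89 bp), RpL13A (49 bp), RpL8 (96 bp), RpL19 (70 bp), RpL36A (109 bp) and RpL11 (52 bp). It was in the first coding exon of RpL14 (31 bp) and RpL6 (74 bp) and in the 5' UTR of RpL7 (24 bp) and RpL41 (38 bp). The 5 summits upstream of the nearest own start were those of RpLP0-like, at 132 bp, and of RpL7A, RpL18, RpL32 and RpL17, at 17 bp or less. At RpL18, RpL32 and RpL17 the summit was still downstream of the canonical start, and at RpL7A downstream of another annotated start. Only the summit of RpLP0-like, which has 1 annotated start, lay upstream of every start of its gene. These places, and the widths in the next sentence, were looked at after the signals were known. The peak regions holding the member summits had a median width of 860 bp, against 776 bp for RpS genes and 544 bp for other genes with a peak.

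Many member promoters are shared with a neighbour. Of the 54 genes, 34 had another protein-coding start within 1000 bp, and 20 had none. Each of the 34 had such a neighbour on the opposite strand with its start upstream, and RpL34b and RpL7-like also had one on their own strand. The median signal was 1265.7 for the 17 isolated members with a peak, against 1362.4 for the 34 with a neighbour. Among isolated genes a peak was present at 17 of 20 members (85.0%), against 1939 of 7913 other genes (24.5%). The high share of RpL genes with a peak thus held where no neighbour's start was near.

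At 19 members the strongest summit was also the strongest within 500 bp of a start of the neighbour, so the peak cannot be assigned to 1 gene. RpL7 starts 30 bp from Ripalpha, RpL13 84 bp from Dref, whose product binds the DRE, RpLP0 111 bp from CG7130, RpL29 122 bp from Sgf29, a SAGA complex gene, and RpL14 127 bp from Nelf-E, a gene of the pausing factor NELF. RpL19 lies 131 bp from CG3776, RpL24-like 156 bp from CG5276, RpL41 182 bp from NaCP60E, a sodium channel gene, and RpL34a 229 bp from Trmt61. RpL3 lies 255 bp from CG6693, RpL34b 269 bp from CG8132, RpL18 277 bp from Neos, RpL36 290 bp from Mybbp1A, RpLP1 300 bp from CG13690, RpL32 309 bp from CG7943 and RpL13A 349 bp from Dph4 and Spec2. RpL7-like shares its start with CG34164 and lies 284 bp from JhI-21. In these pairs no other start was nearer the summit than the RpL start, except at RpLP0-like. Between RpL7-like and CG34164, which share a start, no side can be named.

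Other neighbours had a summit of their own. The strongest was eIF1, an initiation factor gene 381 bp from RpL28, with 1814.3, against 1357.7 for RpL28. The neighbour was the weaker at RpL8, where msn had 882.7, at RpL10Ab, where CG5946 had 213.9, and at RpL4, where BCAS2 had 409.2. At RpL7A the neighbour dx had 843.1, against 843.0 for RpL7A itself. Besides RpL28 and RpL7A, the member was the stronger of each such pair.

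In all 16 members carry nested small nucleolar RNA genes, which guide the modification of ribosomal RNA and are cut from introns of the host transcript. They held 33 of them, from 1 in RpL30, a guide named for 28S rRNA, to 5 in RpL28. All 16 hosts had a peak, but all are main genes, and all 47 main genes had one. Their median signal was 1737.6, against 1214.7 for the other members with a peak, a comparison made after the values were seen. Those other members include the 4 bound duplicates, at 343.6 to 1177.4, and the medians were not compared among main genes alone. The hosts still spanned 730.0 at RpL5 to 3170.8 at RpL30, and RpL17, with 4 nested genes, had 868.1.

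The TCT initiator was searched for within 20 bp of the canonical start on the gene's strand. It matched in 38 of 54 RpL promoters (70.4%), against 60.5% of RpS, 2.13% of mRpL and 4.81% of all protein-coding promoters. Where more than 1 annotated start of a gene was allowed, a count added afterwards, 49 of 54 RpL genes (90.7%) had a match, against 81.6% of RpS genes and 6.83% of all genes. The C of the first match lay a median of 4.5 bases downstream of the annotated start. The C of any match lay within 2 bp of that start in only 7 of the 54, against 0.6% of all genes, so the match is placed only to within the window searched. In the 37 bound members with a match the summit was downstream of the first C in every one, by a median of 79 bp and by 13 to 180 bp. This distance was taken after the signals were known.

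At the alternative starts of some strong members the match was at the start nearest the summit and not at the canonical one. These are shown because a search at canonical starts alone misses them. They are read in the same way, for RpL27A at chr2L:4458297-4458337 (minus), RpL7 at chr2L:10201080-10201120 (plus) and RpL36A at chr2L:8042839-8042879 (minus).
RpL27A: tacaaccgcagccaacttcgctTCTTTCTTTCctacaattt
RpL7: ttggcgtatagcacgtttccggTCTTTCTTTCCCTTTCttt
RpL36A: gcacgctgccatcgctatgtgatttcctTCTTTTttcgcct
RpL27A, RpL7 and RpL36A had signals of 2291.9, 1899.7 and 1914.5.

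The TCT match at the canonical start did not sort the members by signal or by peak. The 37 bound members with a canonical match had a median of 1354.8, against 1316.4 for the 14 without. RpL37-2 had a match and no peak. With any annotated start allowed, the members without a match included RpL10Aa and RpL22-like, which had no peak. The others were RpL17 (868.1), RpL24-like (744.9) and RpLP0-like (1177.4), all below the RpL median. All but RpL17 are duplicates or "-like" genes, so a missing match cannot be told apart from being a duplicate. Among genes outside both ribosomal protein lists, 240 of 604 with a canonical match had a promoter peak (39.7%), near the 42.6% of all genes. Their median signal was 466.9. A match is a run of letters and does not show that the initiator is used.

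DRE (TATCGATA) and the core of Motif 1 (GGTCACAC) were searched for on both strands from 250 bases before to 50 after the canonical start, as was the TATA box (TATAAA). A DRE was found in 15 RpL promoters (27.8%), against 34.2% of RpS, 23.4% of mRpL and 9.01% of all promoters. The Motif 1 core was found in 9 (16.7%), against 10.5% of RpS, 10.6% of mRpL and 7.6% of all promoters. The TATA box was found in 23 (42.6%), against 19 of 38 RpS, 38.3% of mRpL and 44.9% of all promoters. These count a match at any place in the window and on either strand. The nearest match began 34 bases before the start at RpL38, 39 at RpL39 and 6 at RpL41. At the other members with a match it lay 76 bases before the start, at RpL12, or further upstream. Among the bound members the 8 with a Motif 1 core had a median signal of 1907.7, against 1274.4 for the 43 without, and the 15 with a DRE had 1204.3, against 1360.9 for the 36 without. Among the main genes alone the 12 with a DRE had a median of 1370.9, against 1367.1 for the 35 without, so the lower median with a DRE came with the 3 bound duplicates that have one. The main genes with a Motif 1 core had 1907.7, against 1354.8 for the 39 without. The ranges overlapped in both cases, and these medians were compared after the values were seen. Outside the ribosomal protein genes 90.8% of genes with a Motif 1 core and 85.0% of genes with a DRE had a promoter peak.

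Examples are shown with the motif in capitals, the Motif 1 core at a pair of strong members and the DRE at the 3 weakest bound duplicates. They do not divide strong from weak genes, since a DRE was also found at RpL6 itself (1977.7), RpL19 (1915.7), RpL36A (1914.5) and RpL41 (1857.8), and a Motif 1 core at RpL22-like, which had no peak. The Motif 1 core of RpL30 lies at chr2L:19009262-19009289 and that of RpL6 at chr3R:31596208-31596235, both on the minus strand. The DRE of RpL24-like lies at chr3R:11431605-11431632 (minus), that of RpL34a at chr3R:26059293-26059320 (minus) and that of RpL7-like at chr2L:12056301-12056328 (plus).
RpL30: tccccccgtcGGTCACACcaacacaaac
RpL6: cgaccgccctGGTCACACcgctctagac
RpL24-like: tagccagtgtTATCGATAagcagtgact
RpL34a: gttttgaaatTATCGATAgcaattaata
RpL7-like: acacatcactTATCGATAgcaaagcact
The 3 bound duplicates other than RpLP0-like each had a DRE in this window, and the 3 weakest duplicate signals, 343.6, 574.5 and 744.9, are theirs.

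**Figure D5:**
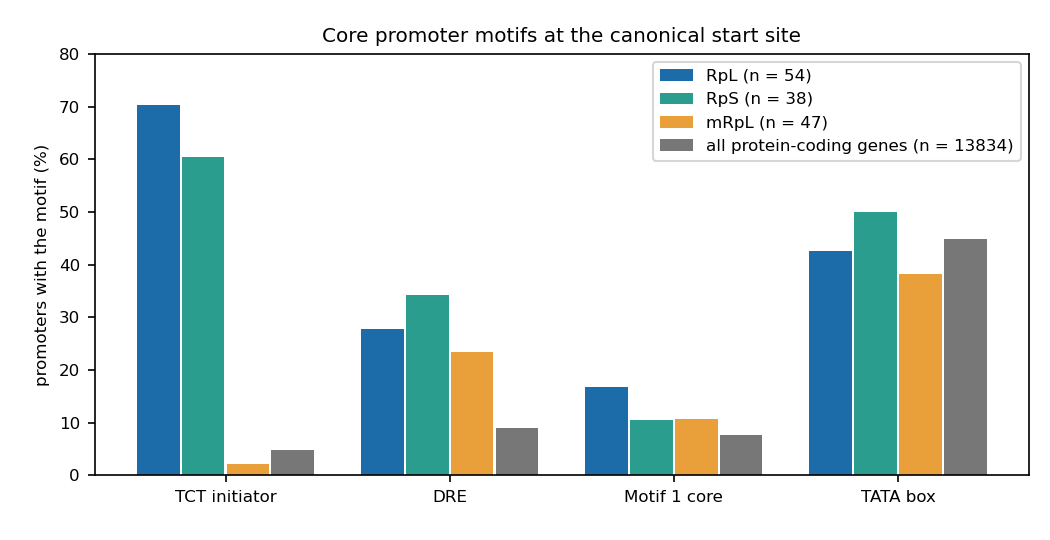
Share of promoters (%) with a match to the TCT initiator (within 20 bp of the canonical start), DRE, Motif 1 core or TATA box (250 bases before to 50 after it), for RpL, RpS, mRpL and all protein-coding genes. The TCT bars stand at 70.4% for RpL and 4.81% for all genes, while the TATA box bars, 42.6% and 44.9%, are close.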

How the data were processed

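ChIP-seq of MESR4-GFP was analysed in 2 samples of 1 group, labelled biological replicates 1 and 3 of embryos. Per the labels and the deposited listings, the authors called peaks and background regions on each replicate and on both together against 1 control alignment, on dm6, and kept peaks by a threshold on the irreproducible discovery rate. No interval on a signal was computed, as the aligner, caller, threshold and sequencing depth are not given in the sources used here. As deposited, the signal is the authors' value per summit, and it was used for all levels and ranks. The deposited −log10 q values were read and not used in a result. The 3 full lists hold 30000 summits each and the thresholded list 6415 summits in 5534 regions.

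Summits were joined to start sites of protein-coding genes of Ensembl release 115 with Python 3.11.15, NumPy 2.4.6 and SciPy 1.17.1, and figures were drawn with Matplotlib 3.10.9. The window was 500 bp around any start, and a gene's value was its strongest summit. The 111 genes of the histone cluster were left out of all counts. The join was tested on simulated data. No test between groups or of the gene list was made. Sequences came from the RefSeq release 6 genome.

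The members and lists were chosen with earlier results of these data known. Full values are given for the 12 strongest members, the 5 weakest bound ones, those without a peak and the duplicate pairs, and neighbours within 1000 bp are named with their member. 1 member and 1 neighbour are counted in the totals but are not reported here. Alternatives were windows of 250 and 1000 bp, the 3207 strongest summits, each summit counted for its nearest start alone, canonical starts alone, 1 summit per region and each replicate alone.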

Additional observations from a re-analysis of the deposited data

How the results depend on the processing

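The count of 51 members with a promoter peak was the same under 6 of the 8 alternatives. It was 50 with the 3207 strongest summits, where RpL7-like was lost, and 50 when each summit was counted for its nearest start alone, where RpLP0-like was lost, so 3 of the 7 duplicates then had a peak. The count among the 100 strongest genes was 21 or 22 and the median offset of isolated members 60 to 93 bp throughout. The median signal was 451.4 without replicate 1 and 911.2 without replicate 3, each on the scale of the remaining replicate's own list. The ratio of that median to the median of other genes with a peak was 2.23 with the 3207 strongest summits, against 2.91, because weaker summits of other genes are then not counted. It was 2.78 to 3.05 under the other alternatives, all of which were added for this ratio after the values were seen. No paired analysis was possible because the series has only 1 group. With the depth unknown, genes listed without a peak may lie under the lists' detection limit.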

Other observations

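Some of the weaker main genes lie near the centromeric ends of their chromosome arms. Within 5.1 Mb of such an end, a limit set after the weak members were seen, RpL15 had a signal of 942.9, RpL21 903.6, RpL38 789.3, RpL10 753.4 and RpL5 730.0. RpL30, the strongest of all members at 3170.8, lies within the same limit, and the next members outward were strong, RpL35A with 1510.6 at 5.47 Mb, RpL13A with 2066.8 at 5.62 Mb and RpLP0 with 1555.4 at 6.03 Mb. The limit thus stops where the weak genes stop, and no trend with distance can be read from it. The 41 main genes beyond it had a median of 1384.6 and a lowest value of 843.0. Other genes with a peak had medians of 474.4 within the limit and 464.2 beyond it.

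A second promoter summit, looked at after the other values were seen, was listed at 25 of the 51 bound members (49.0%), against 26.7% of other genes with a peak. It was listed at 19 of 22 plus-strand members and at 6 of 29 minus-strand members, and at 32.0% of plus-strand and 21.5% of minus-strand genes among the others. In all 25 members the second summit was at the higher coordinate, whatever the gene's strand. Over all 758 regions with 2 summits, the stronger summit was at the lower coordinate in 712 (93.9%). A side of the genome and not of the gene thus marks these second summits, and the part of the peak calling in them was not tested.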
